A study of Mus musculus with 4 samples.

Results

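The genes described here are the 10 hepatic transporters that move bile acids, and the phospholipids secreted with them, across the hepatocyte membrane. They were chosen by name, as every probe set of the array annotated to Slc10a1, Slco1a1, Slco1a4, Slco1b2, Abcc3, Abcc4, Abcb11, Abcb4, Abcc2 or Atp8b1. This gave 16 of the 45037 probe sets tested and 10 of 18193 genes, and none of the 16 was shared with another gene in the platform annotation. Livers of mice with a liver-specific knockout of Baf60a (Baf60a LKO) were compared with livers of wild-type mice (WT), both of C57BL/6 background. All mice of both groups ate a high-fat diet for 10 weeks from 6 weeks of age and were starved overnight before the liver was taken. Each group had 2 Affymetrix whole-genome mouse arrays, each with its own pool of liver RNA. The number and sex of the mice in a pool and the Cre line behind the knockout are not given in the sources used here. Smarcd1 is the gene of BAF60a, which belongs to the SWI/SNF complex that remodels chromatin.

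Bile acids circulate between liver and gut. Hepatocytes take them up from portal blood at the basolateral membrane, mainly through the sodium-dependent transporter NTCP (Slc10a1) and the sodium-independent organic anion transporters of the Slco family. They secrete them into bile at the canalicular membrane through the bile salt export pump (Abcb11), while Abcb4 and Atp8b1 handle membrane phospholipids and Abcc2 exports conjugated organic anions. Abcc3 and Abcc4 return organic anions and bile acids to the blood, a route known to gain weight when canalicular secretion fails.

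Of the 10 transporter genes, 2 fell in Baf60a LKO livers and none rose. Slco1a4, an uptake transporter gene, fell 13.4-fold, and Abcc3, a basolateral exporter gene, fell 2.02-fold. The other 8 did not pass the test, which was limma with Benjamini-Hochberg adjustment over all genes and a threshold of adjusted p under 0.05. Across all genes 0.484% passed in either direction, 0.247% as lower and 0.236% as higher. The median log2 fold change, always Baf60a LKO minus WT, was -0.03 over the 10 members and 0 over all genes tested. At an unadjusted p under 0.05 there were 5 of the 10 members, against 10.2% of all genes. In a fit of the brighter 50% of genes alone it was 1304 of 9097. Among the 16 probe sets, tested with all 45037, 1 passed as lower, that of Slco1a4, and none as higher. At an unadjusted p under 0.05 there were 8 of the 16, against 8.17% of all probe sets. In a fit of the brighter 50% of probe sets alone it was 2460 of 22519. The shares of all genes and all probe sets cover dim and bright ones alike and are not matched to the levels of the members. Of all probe sets 0.187% passed, 0.12% as lower and 0.0666% as higher.

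The arrays were alike in level, with medians of 4.20 and 4.19 in Baf60a LKO and of 4.27 and 4.19 in WT on the log2 scale. WT replicate 1 stood somewhat apart, with correlations of 0.987 to 0.991 to the other arrays, against 0.993 to 0.996 among those. The fold changes of the 10 transporters and of the named genes of the related lists were therefore also computed without it. As a gauge of background, the 27 control probe sets for Bacillus subtilis transcripts had 95th percentiles of 2.63 to 2.86 on the 4 arrays. The targeted gene Smarcd1 stood at 5.34 and 5.30 in Baf60a LKO and at 5.62 and 5.88 in WT, a log2 fold change of -0.43 ± 0.14 (SE) that did not pass (limma, adjusted p = 0.410). With the probe sets of Smarcd1 averaged the value was -0.28. It was -0.56 without WT replicate 1 and -0.30 without WT replicate 2. Whether the probe set used lies in the deleted part is not known, so this does not check the genotype. The hepatocyte marker Alb read 14.13 and 14.17 in Baf60a LKO and 14.05 and 14.08 in WT. Of the 6 hepatocyte markers 3 were lower and 3 higher in Baf60a LKO, and 0 passed. Tat had the largest difference of them, at -0.34 ± 0.14 without overlap (limma, adjusted p = 0.510).

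**Figure D1:**
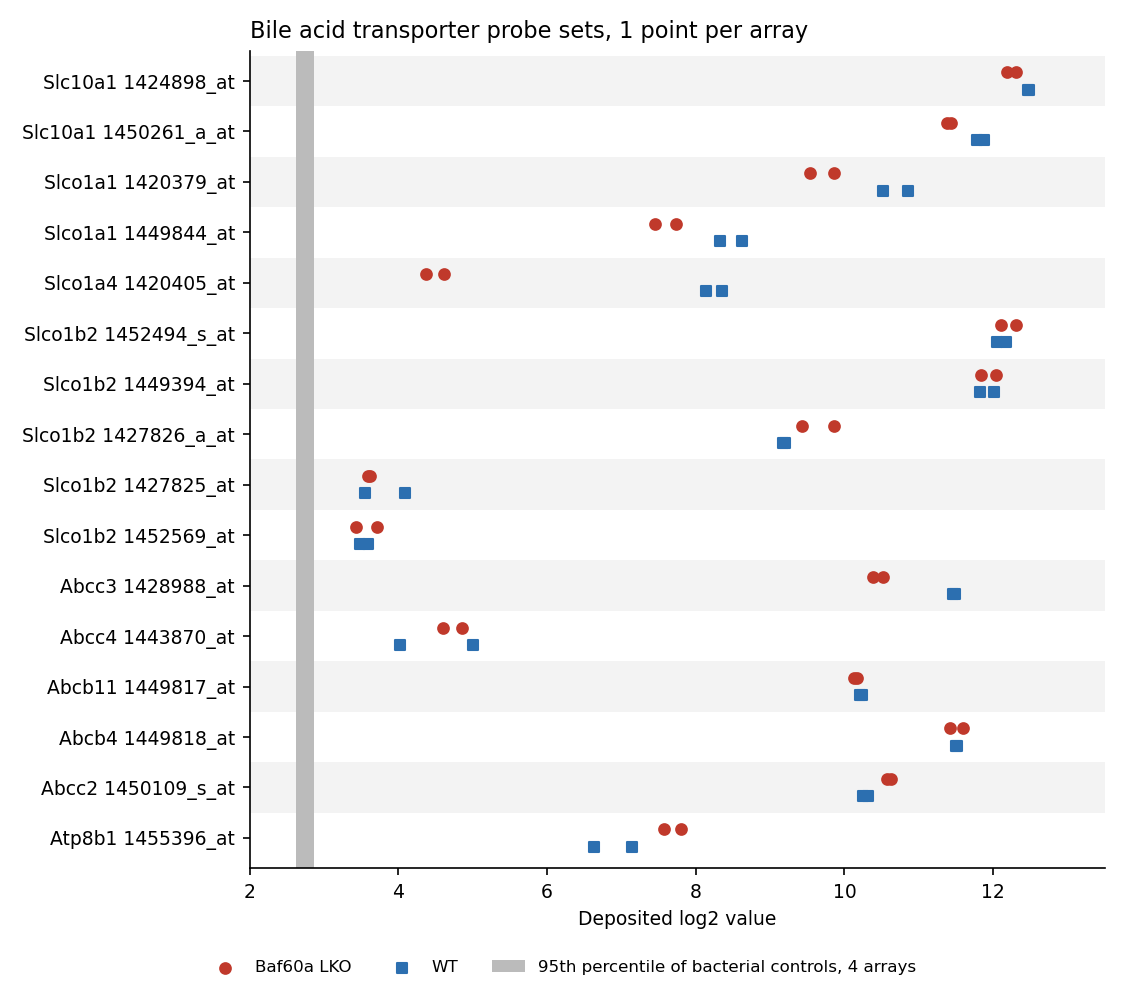
Deposited log2 value (x axis) of each of the 16 probe sets (rows) on each array, with Baf60a LKO pools as circles above and WT pools as squares below. The grey band spans the 95th percentiles of the bacterial control probe sets on the 4 arrays, and levels cannot be compared between probe sets. The Slco1a4 circles sit at 4.38 and 4.62, far left of the squares at 8.36 and 8.14, while the circles and squares of Abcb11 and Abcb4 nearly coincide.

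Slco1a4, Slco1a1 and Slco1b2 lie in one cluster of Slco1 genes on chromosome 6. Their promoter windows are shown because these neighbours differ in the size of their change between the genotypes. Each runs from 250 bases before to 50 bases after the start site, 5′ to 3′ on the gene's own strand, from RefSeq (GRCm38.p6), which holds such windows for 8 of the 10 genes. The windows are chr6:141856171-141856470 on the minus strand for Slco1a4, chr6:141946913-141947212 on the minus strand for Slco1a1 and chr6:141629268-141629567 on the plus strand for Slco1b2. Capitals mark matches, on either strand, to any of 5 short motifs that were searched.
Slco1a4: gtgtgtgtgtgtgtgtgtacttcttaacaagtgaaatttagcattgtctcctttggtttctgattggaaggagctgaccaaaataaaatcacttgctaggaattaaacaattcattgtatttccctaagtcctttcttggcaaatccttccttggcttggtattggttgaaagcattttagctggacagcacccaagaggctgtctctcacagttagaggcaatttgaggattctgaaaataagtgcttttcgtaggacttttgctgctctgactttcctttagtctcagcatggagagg
Slco1a1: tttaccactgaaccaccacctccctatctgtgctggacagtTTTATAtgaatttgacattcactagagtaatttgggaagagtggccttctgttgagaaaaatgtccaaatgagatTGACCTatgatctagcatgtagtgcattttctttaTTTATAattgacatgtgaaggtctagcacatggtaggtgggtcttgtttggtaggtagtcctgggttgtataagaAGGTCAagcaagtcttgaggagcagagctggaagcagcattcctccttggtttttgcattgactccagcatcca
Slco1b2: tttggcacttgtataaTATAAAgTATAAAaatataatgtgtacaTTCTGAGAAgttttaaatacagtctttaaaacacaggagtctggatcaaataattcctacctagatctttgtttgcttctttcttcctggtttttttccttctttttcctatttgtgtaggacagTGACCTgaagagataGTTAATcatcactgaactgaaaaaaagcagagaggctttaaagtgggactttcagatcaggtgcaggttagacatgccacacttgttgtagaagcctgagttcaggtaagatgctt

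The motifs were the nuclear receptor hexamer AGGTCA, the STAT palindrome TTCNNNGAA, the HNF1 core GTTAAT, the antioxidant response element core TGACNNNGC and the TATA box TATAAA. The reverse of the hexamer, TGACCT, can also begin an antioxidant core, so those motifs may overlap. The Slco1a4 window held none of the 5 motifs. The Slco1a1 window held the hexamer at 2 places, beginning 134 and 24 bases before the start site, and the TATA letters at 2 places, both on the opposite strand. The Slco1b2 window held 1 hexamer 81 bases before the start, 1 STAT palindrome at 206 bases, 1 HNF1 core at 66 bases and the TATA letters at 234 and 227 bases. Of all 32851 promoter windows of this length in the table, 16.3% held the hexamer, 8.30% the STAT palindrome, 7.10% the HNF1 core, 12.4% the antioxidant core and 13.6% the TATA letters. The letters describe these windows alone and were not tested for binding by any factor.

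Of the 4 genes of basolateral uptake, Slco1a4 fell and the other 3 did not pass. Slco1a4 encodes an organic anion transporter that takes up bile acids and many drugs. Its single probe set read 4.38 and 4.62 in the Baf60a LKO pools, against 8.36 and 8.14 in the WT pools. The groups lay far apart, and the Baf60a LKO values were dim but above the 95th percentile of the bacterial controls. The log2 fold change was -3.75 ± 0.15 (SE, 2 pools per group; 95% interval -4.12 to -3.37; limma, adjusted p = 0.00145). By size of log2 fold change Slco1a4 held rank 11 of the 18193 genes. In bulk liver RNA, fewer cells expressing a gene and less of its RNA per cell cannot be told apart. Without WT replicate 1 the value was -3.64 and without WT replicate 2 it was -3.86. It did not pass in either of these fits of 3 arrays, which have fewer degrees of freedom for every gene. Without Baf60a LKO replicate 1 or 2 it still passed, at -3.63 and -3.87.

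Slco1a1, the chromosomal neighbour of Slco1a4 and another organic anion uptake transporter, was lower in both Baf60a LKO pools than in either WT pool on both of its probe sets, but did not pass. The brighter probe set read 9.86 and 9.54 in Baf60a LKO, against 10.85 and 10.52 in WT. The dimmer one read 7.73 and 7.46 in Baf60a LKO, against 8.63 and 8.33 in WT. The pair thus gave nearly equal log2 fold changes, of -0.98 ± 0.18 and -0.89 ± 0.17. The brighter one, which stands for the gene, had an adjusted p of 0.155 by limma and a 95% interval of -1.43 to -0.54. That interval lies clear of the interval of Slco1a4, although the difference between these genes was not itself tested. With a trended and robust eBayes Slco1a1 passed, with a limma adjusted p of 0.0310. Without WT replicate 1 its log2 fold change was -0.82.

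Slc10a1, which encodes NTCP, the main sodium-dependent uptake transporter, was slightly lower in Baf60a LKO, with no overlap between groups on either probe set. The brighter one read 12.31 and 12.18 in Baf60a LKO, against 12.48 and 12.47 in WT, a log2 fold change of -0.23 ± 0.12 (limma, adjusted p = 0.562). The other read 11.43 and 11.37 in Baf60a LKO, against 11.78 and 11.88 in WT, a log2 fold change of -0.43 ± 0.12. The 95% intervals of these values were -0.52 to 0.07 in the gene fit and -0.73 to -0.12 in the fit over probe sets, so a fall of the size seen for Slco1a4 lies outside both.

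Slco1b2, the mouse counterpart of the human liver transporters OATP1B1 and OATP1B3, was read by 5 probe sets, of which none passed and whose log2 fold changes differed in sign. The brightest read 12.11 and 12.31 in Baf60a LKO, against 12.05 and 12.17 in WT, with overlapping groups and a log2 fold change of 0.10 ± 0.13 (95% interval -0.23 to 0.43; limma, adjusted p = 0.806). The next read 11.84 and 12.03 in Baf60a LKO, against 11.83 and 12.01 in WT, which is no more than the spread between pools. Another, at 9.42 and 9.86 in Baf60a LKO against 9.18 and 9.20 in WT, did not overlap and gave 0.45 ± 0.18, without passing, or 0.67 without Baf60a LKO replicate 1 and 0.23 when replicate 2 of that genotype was left out. The remaining pair lay between 3.43 and 3.72 in Baf60a LKO and between 3.49 and 4.10 in WT, dim but above the bacterial controls, with log2 fold changes of -0.21 and 0.04. Over the 4 uptake genes the median log2 fold change was -0.60, and over their 10 probe sets -0.22.

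**Figure D2:**
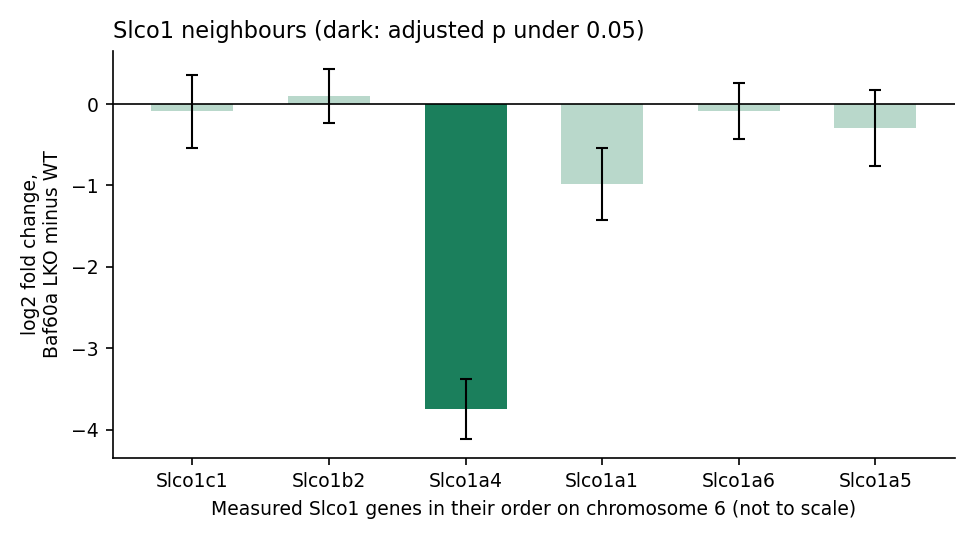
Log2 fold change, Baf60a LKO minus WT (y axis), with 95% intervals from limma, for the 6 measured Slco1 genes in their order on chromosome 6; dark bars passed at an adjusted p under 0.05. Slco1a4 stands at -3.75 and its neighbour Slco1a1 at -0.98, while Slco1b2 on the other side stands at 0.10.

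The rest of the Slco1 cluster showed no change that passed. In chromosomal order the measured genes are Slco1c1, Slco1b2, Slco1a4, Slco1a1, Slco1a6 and Slco1a5. Slco1c1, Slco1a6 and Slco1a5 had log2 fold changes of -0.09, -0.08 and -0.29. With WT replicate 1 left out, Slco1c1 was at 0.06, Slco1a6 at 0.0020 and Slco1a5 at -0.05. Their values ran from 2.88 to 3.49 in Baf60a LKO and from 3.01 to 3.55 in WT, near the bacterial controls, where the deposited scale compresses differences.

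Of the pair of basolateral exporters, Abcc3 fell and Abcc4 did not pass. Abcc3 encodes MRP3, which exports glucuronides and bile acids to the blood. It read 10.39 and 10.52 in Baf60a LKO, against 11.49 and 11.46 in WT. The difference of about 1 on the log2 scale compares with 0.13 between the Baf60a LKO pools and 0.03 between the WT pools. The log2 fold change was -1.02 ± 0.12 (95% interval -1.31 to -0.72; limma, adjusted p = 0.0444), at rank 175 of all genes by size. The value stayed between -1.08 and -0.95 with any 1 array left out, but the call was lost each time, with limma adjusted p of 0.114 to 0.601. In the fit over all 45037 probe sets the same values gave a limma adjusted p of 0.0827.

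Abcc4 encodes MRP4, an exporter of sulfated bile acids and cyclic nucleotides. Its only probe set read 4.85 and 4.60 in Baf60a LKO, both inside the range of the WT values of 4.02 and 5.01. The log2 fold change of 0.21 ± 0.33 had a 95% interval of -0.60 to 1.03 and an adjusted p of 0.835 by limma. It turned to -0.28 without WT replicate 1 and stood at 0.71 without WT replicate 2, so no direction was detectable for Abcc4.

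**Figure D3:**
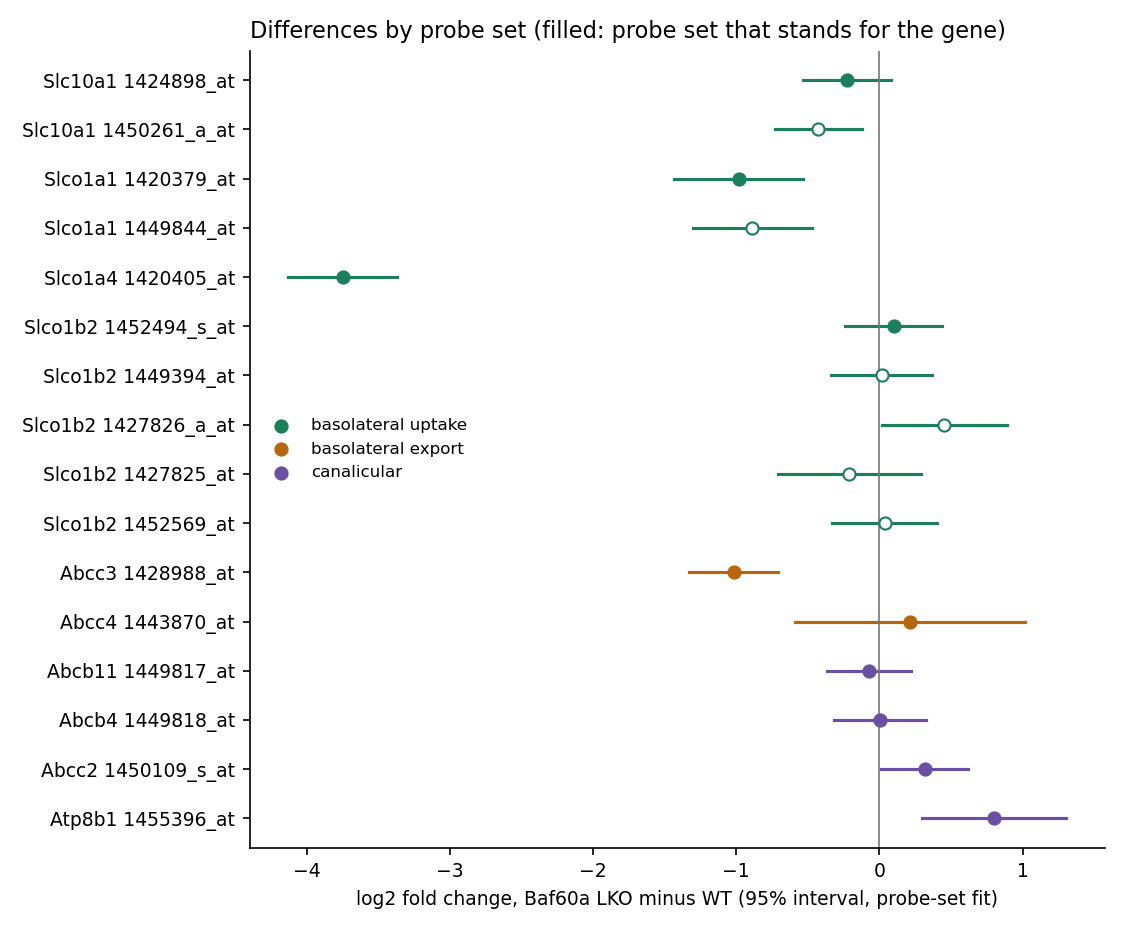
Log2 fold change, Baf60a LKO minus WT (x axis), of the 16 probe sets (rows), coloured by the side of the hepatocyte on which the protein works; lines are 95% intervals from the limma fit over all probe sets and filled points mark the probe set that stands for its gene. The interval of Slco1a4 ends at -3.37 and that of Abcc3 at -0.71, while the Abcc4 interval spans -0.59 to 1.01.

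None of the 4 canalicular genes passed, and their median log2 fold change was 0.16. Abcb11, the bile salt export pump, read 10.16 and 10.13 in Baf60a LKO, against 10.21 and 10.23 in WT. The groups did not overlap, but the log2 fold change was only -0.07 ± 0.11 (95% interval -0.35 to 0.21; limma, adjusted p = 0.837). Abcb4, the phosphatidylcholine floppase that protects the biliary tree from bile salts, read 11.60 and 11.42 in Baf60a LKO, on either side of the WT values of 11.50 and 11.51. Its log2 fold change of 0.00332 ± 0.12 changed sign under renormalization and had a 95% interval of -0.30 to 0.31 (limma, adjusted p = 0.998). For Abcb11 and Abcb4 these intervals leave out a change as large as that of Abcc3, while smaller changes within them were not detectable with 2 pools per group.

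The other 2 canalicular genes were higher in both Baf60a LKO pools than in either WT pool, without passing. Abcc2, which encodes the conjugate exporter MRP2, read 10.58 and 10.63 in Baf60a LKO, against 10.25 and 10.32 in WT. Its log2 fold change was 0.32 ± 0.11 (limma, adjusted p = 0.459). Atp8b1 encodes a phospholipid flippase whose human counterpart is mutated in familial intrahepatic cholestasis. It read 7.57 and 7.80 in Baf60a LKO, against 6.63 and 7.14 in WT. Its log2 fold change of 0.80 ± 0.20, a 1.74-fold difference at rank 305 of all genes, did not pass (limma, adjusted p = 0.304). The WT pools differed by 0.51 from each other, and without WT replicate 1 the value was 0.54, against 1.05 without WT replicate 2.

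Over the 10 members, 7 had groups that did not overlap, 5 lower and 2 higher in Baf60a LKO. Among all genes 42.4% had no overlap, 19.6% as lower and 22.8% as higher, so with 2 pools per group the absence of overlap is common. Of the 16 probe sets, 7 were lower and 3 higher without overlap, against 19.4% and 19.7% of all probe sets and 39.1% in either direction. These shares are likewise not matched to the levels of the members. The spread between pools also differed between members. For Abcc4 it was 0.26 between the Baf60a LKO pools and 0.99 between the WT pools, the widest WT difference of the 10, and it was narrow for Abcb11, at 0.03 and 0.02 on the same log2 scale.

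**Figure D4:**
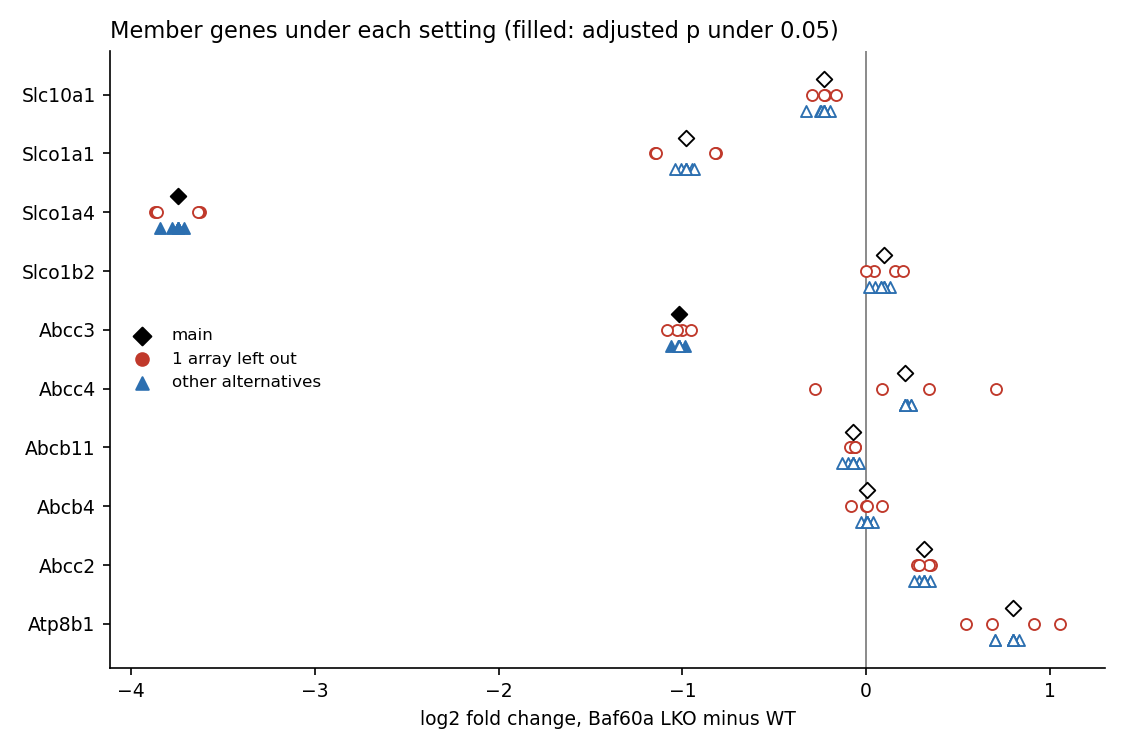
Log2 fold change, Baf60a LKO minus WT (x axis), of each of the 10 genes (rows) under the main setting (diamonds), with 1 array left out (circles) and under the other alternatives (triangles); filled symbols had a limma adjusted p under 0.05. Slco1a4 stays between -3.87 and -3.63 and Abcc3 between -1.08 and -0.95, whereas Abcc4 spreads from -0.28 to 0.71 across 0.

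The genes most like Slco1a4 over the 4 arrays, by root mean square distance between profiles centred on their own means, were the cytochrome P450 genes Cyp2c54 and Cyp2c50 and the sulfotransferase gene Sult5a1. Their distances were 0.17, 0.20 and 0.26 on the log2 scale, and their log2 fold changes -3.68, -3.79 and -3.25. Cyp2c54 read 7.84 and 8.26 in Baf60a LKO, against 11.62 and 11.84 in WT. The genes most like Abcc3 were Ankrd2, the lipid droplet formation gene Fitm1 and the sodium-calcium exchanger gene Slc8a1, at distances of 0.05, 0.06 and 0.06. Of these, Fitm1 fell (log2 fold change -1.12 ± 0.12; limma, adjusted p = 0.0321), and Ankrd2 and Slc8a1, at -0.95 and -0.93, did not pass. With 4 arrays in 2 groups such likeness mostly restates the size of the group difference.

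The lists of related transporters and of the proteins that anchor or deliver them held no gene that passed. Of 6 measured genes of the SLC10 family and the basolateral exporter OST (Slc51a and Slc51b), 0 passed, and the median log2 fold change was -0.06. Slc51a, at 3.89 and 3.55 in Baf60a LKO and 3.94 and 3.50 in WT, and Slc51b, at 4.61 and 4.10 in Baf60a LKO and 4.88 and 4.07 in WT, overlapped between groups. The steroid sulfate transporter gene Slc10a6 differed by -0.41 ± 0.13 and Slc10a7 by 0.44 ± 0.19, both without overlap. Of 9 other Slco genes 0 passed, with a median of -0.09. Slco2b1, a further hepatocyte uptake transporter, differed by 0.43 ± 0.12, and Slco2a1, the prostaglandin transporter gene, by 0.45 ± 0.15. Slco3a1 and Slco5a1 differed by -0.39 ± 0.15 and -0.37 ± 0.13. Slco5a1 was dim, at 3.27 and 3.23 in Baf60a LKO and 3.74 and 3.50 in WT, where the deposited scale compresses differences. Slc10a6 was also dim, at 3.97 and 3.95 in Baf60a LKO and 4.26 and 4.48 in WT. With each gene's probe sets averaged, Slc10a7 was at 0.11, Slco2b1 at 0.20, Slco3a1 at -0.16 and Slco5a1 at -0.23, and Slc10a7 was at 0.19 without WT replicate 1 and at 0.69 without WT replicate 2. Slco3a1 was at -0.24 without Baf60a LKO replicate 1.

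Of 9 other ABC exporters 0 passed, with a median log2 fold change of 0.15. Abcg2, which exports sulfated conjugates at the canalicular membrane, read 10.32 and 10.33 in Baf60a LKO, against 9.98 and 10.01 in WT, a log2 fold change of 0.33 ± 0.11 that did not pass (limma, adjusted p = 0.434). Abcc1 differed by 0.29, Abcc5 by -0.33 and Abcb1a, a P-glycoprotein gene, by -0.25, but with probe sets averaged these 3 were at 0.14, -0.01 and 0.06. Without WT replicate 1, Abcc5 was at -0.13 and Abcb1a at -0.12, and without WT replicate 2 they were at -0.54 and -0.37, while Abcc1 was at 0.20 without Baf60a LKO replicate 1. Of the 10 measured scaffold, flippase partner and trafficking genes 0 passed, and the median was 0.17. Without overlap 7 were higher, against 22.8% of all genes. That share covers dim and bright genes alike and is not matched to the levels of this list. The median log2 fold change was 0.08 over the brighter 50% of genes, against 0 over all genes. Pdzk1, a scaffold that holds Slco1a1 at the membrane in mouse liver, read 9.41 and 9.28 in Baf60a LKO, against 8.80 and 8.99 in WT (log2 fold change 0.45 ± 0.13; limma, adjusted p = 0.364). Vps33b, needed for delivery of proteins to the apical membrane, differed by 0.40 ± 0.13, and Tmem30a, the partner subunit of Atp8b1, by 0.28 ± 0.12. Hax1, which binds Abcb11, differed by 0.23 ± 0.11. After loess normalization Pdzk1, Vps33b, Tmem30a and Hax1 were at 0.37, 0.31, 0.23 and 0.20. In the same order they were at 0.36, 0.30, 0.20 and 0.19 without WT replicate 1. Without WT replicate 2 they were at 0.54, 0.51, 0.35 and 0.26.

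Of the 14 measured receptors and factors known to control these transporters, Nr1i3 fell, 0 rose and 13 did not pass, and the list median was -0.01. Nr1i3, which encodes the receptor CAR, read 6.33 and 6.58 in Baf60a LKO, against 11.21 and 11.26 in WT (log2 fold change -4.77 ± 0.14; limma, adjusted p = 0.000591). Without WT replicate 1 or 2 it missed the threshold, at log2 fold changes of -4.80 and -4.75 (limma, adjusted p = 0.0665 and 0.0742). The part of Nr1i3 in the values of Slco1a4, Abcc3 and the other members was not tested. Fgfr4, the hepatocyte receptor of the gut hormone FGF15, differed by 0.57 ± 0.15, Nfe2l2, which encodes NRF2, by 0.47 ± 0.19, and Ahr, the aryl hydrocarbon receptor gene, by -0.38 ± 0.12. Nr1h4, which encodes the bile acid receptor FXR, known as the main inducer of Abcb11, differed by 0.23 ± 0.12. Fgfr4 was at 0.08 with its probe sets averaged, and Nfe2l2 at 0.20 without WT replicate 1 and at 0.73 without WT replicate 2.

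**Figure D5:**
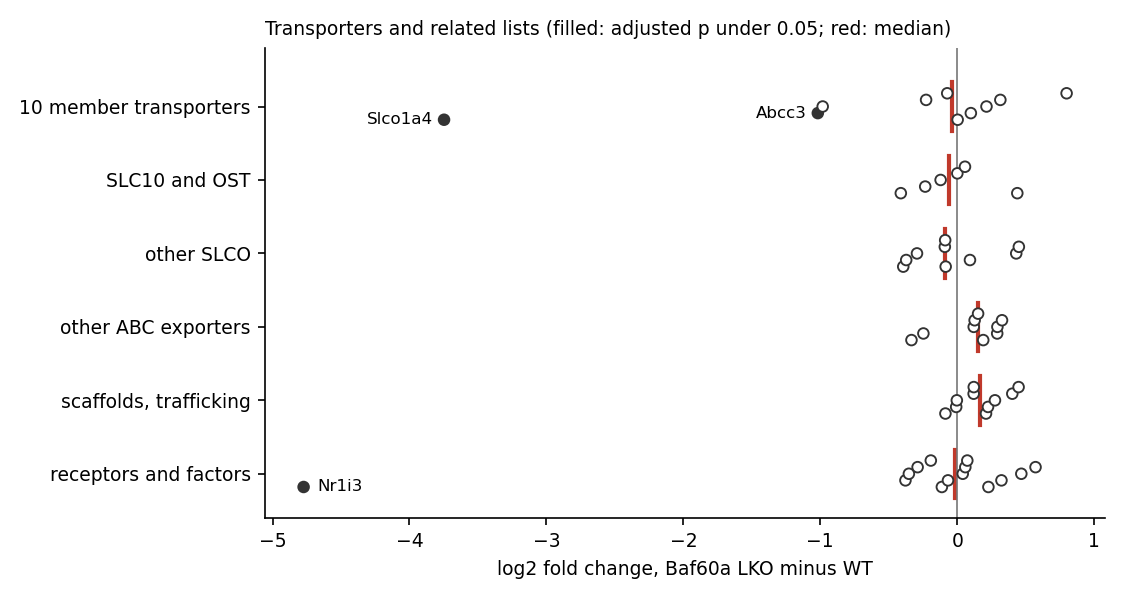
Log2 fold change, Baf60a LKO minus WT (x axis), of the 10 transporters and of 5 related lists (rows), 1 point per gene, filled where the limma adjusted p was under 0.05; red bars are list medians. Slco1a4, Abcc3 and Nr1i3 are the filled points, and the other genes of the 5 related lists lie between -0.41 and 0.57.

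Bile duct cells also hold several of these transporters, and their markers tended higher in Baf60a LKO without passing. Of 6 measured cholangiocyte markers all were higher in Baf60a LKO and 0 passed. Their mean level was 4.35 and 4.66 in Baf60a LKO, against 3.79 and 3.98 in WT. Their log2 fold changes had a median of 0.42 and ran from 0.01 for Cftr to 1.17 for Epcam and 1.34 for Pkhd1. Krt7, Krt19 and Sox9 stood at 0.45, 0.39 and 0.38, and Krt7 and Krt19 were dim. Epcam read 5.71 and 6.02 in Baf60a LKO, against 4.44 and 4.95 in WT, Pkhd1 read 5.77 and 6.45 in Baf60a LKO, against 4.45 and 5.09 in WT, and Cftr lay below the 95th percentile of the bacterial controls on every array. The part of these cells in the values of Atp8b1, Abcc2 and Abcc4 was not tested. Mean levels of 5 Kupffer cell and macrophage markers were 9.11 and 9.09 in Baf60a LKO, against 8.96 and 9.24 in WT. Those of 5 endothelial markers were 8.04 and 7.88 in Baf60a LKO, against 7.91 and 8.07 in WT. Those of 5 stellate cell markers were 6.72 and 6.78 in Baf60a LKO, against 6.76 and 6.89 in WT. The 2 measured adipocyte markers averaged 2.45 and 2.47 in Baf60a LKO, against 2.59 and 2.52 in WT, near background. Hepatocyte markers averaged 11.94 and 12.03 in Baf60a LKO, against 11.98 and 12.04 in WT, over 6 genes of which 0 passed.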

How the data were processed

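Liver RNA pools of 2 Baf60a LKO and 2 WT groups of mice were read on 4 arrays, and the labelled genotype set the groups. The deposited values are log2 values, 1 per probe set and array. Per the submitters' processing notes they come from RMA, with affy and limma also named, without versions. RMA corrects background, normalizes by quantiles and summarises probes, and it compresses differences of dim probe sets. Arrays hold no read depth, so their number limits the precision, and p-values measure how far pools differ, not single mice.

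After 64 control probe sets were left out, 45037 of 45101 were tested. The platform annotation gave 1 symbol to 34945, several to 932, and did not list 9160. Symbols were updated by Entrez number through the RefSeq gene table of GRCm38.p6 (34741 matched). The probe set brightest on average stood for its gene. The test of Baf60a LKO against WT was limma 3.58.1 under R 4.3.3 (lmFit, eBayes, 2-sided, Benjamini-Hochberg, threshold 0.05), once over 18193 genes and once over probe sets. Errors are standard errors of these fits after eBayes, which draws each variance toward a value shared by all genes or probe sets. The fits have 2 residual degrees of freedom, and eBayes adds 3.54 prior degrees of freedom in the gene fit. Errors and intervals therefore do not reflect the spread between a gene's own pools alone. No filter on level was applied. Scripts were tested on simulated data.

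The members and lists were chosen with earlier results of these data known. Named genes are all members with every probe set, list genes that passed or had the 4 largest non-overlapping differences of a list, the 3 genes most like each member that passed, Nr1i3 and Smarcd1. Slc51a, Slc51b and Nr1h4 fall outside this rule, and were named for their role after their values were seen. The same holds for the remaining genes of the Slco1 cluster and the markers Alb, Tat, Krt7, Krt19, Epcam, Sox9, Pkhd1 and Cftr. Alternatives were 3 normalizations, the brighter 50%, another eBayes, a replicate block, 2 other choices of probe set and leaving out each array.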

Additional observations from a re-analysis of the deposited data

How the results depend on the processing

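Over 12 alternatives for genes, the log2 fold change of Slco1a4 stayed between -3.87 and -3.63 and that of Abcc3 between -1.08 and -0.95. The number of members that passed as lower, 2 in the main setting, was 1 with a replicate block, where Abcc3 had a limma adjusted p of 0.147 and Slco1a4 0.0276. It was 0 to 1 with 1 array left out, and with 3 arrays the fit has fewer degrees of freedom. The 1 related gene that passed, Nr1i3, gave 0 to 1 with 1 array left out. No member or related gene passed as higher under any alternative. Of the 16 member probe sets, 1 passed in the main setting, 2 after quantile or loess normalization, 2 in the brighter 50%, 2 with a trended and robust eBayes, 0 with a replicate block and 0 with any array left out.

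All genes passing numbered 88, against 142 after loess, 154 with array medians subtracted, 216 with the trended and robust eBayes, 19 with the replicate block and 0 to 17 with 1 array left out. All probe sets passing numbered 84, against 139 after quantiles, 162 after loess, 146 with medians subtracted, 173 with the trended and robust eBayes, 4 with the replicate block and 0 with any array left out. Same-numbered pools deviated from their group means with a correlation of 0.147 over probe sets, and the labels do not say that they are paired.

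The sign of Abcb4 turned after quantiles (-0.00027) and loess (-0.030) and ran from -0.082 to 0.089 with 1 array left out. The next brightest Slco1b2 probe set turned after quantiles (-0.0079) and loess (-0.011) and ran from -0.084 to 0.11. With 1 array left out, Abcc4 ran from -0.28 to 0.71, and the dim pair of Slco1b2 probe sets from -0.48 to 0.065 and from -0.11 to 0.18. The causes were not tested.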
